A study of Homo sapiens with 4 samples.

Results

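The miR-103 and miR-107 loci were examined in small RNA libraries of HEK293T cells, a human embryonic kidney line, that depended on a transfected form of the largest subunit of RNA polymerase II. The members were chosen by gene symbol, as the microRNAs (miRNAs) carried in introns of the pantothenate kinase genes PANK1, PANK2 and PANK3 and the miRNAs annotated on the opposite strand of the same places. They numbered 5 of the 7062 small RNA features in the count tables: MIR103A1, MIR103A2 and MIR107, and the antisense loci MIR103B1 and MIR103B2. In the 52X WT group the C-terminal domain of the polymerase had 52 repeats of the wild-type kind, and in the 52X T4A group it had 52 repeats of the T4A kind, in which alanine stands in for threonine at the fourth place. All cells were transiently transfected with 1.5 µg of plasmid per well and then held in α-amanitin at 2.5 µg/ml for 72 h, since the toxin removes cells that lack a resistant polymerase. The control was therefore not an untreated cell but a transfected and selected one, and the labels name the line as HEK293 in one place and HEK293T in another. Each group had 2 libraries of total RNA, labelled replicates 1 and 2, and nothing in the labels states how far apart their cultures were, so that p-values measure only the spread between these libraries. Neither the line nor the construct has a defining small RNA in the tables, and the labels were not checked against markers.

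The comparison asks how the level of these miRNAs differed when threonine at the fourth repeat position was absent. Intronic miRNAs are transcribed by RNA polymerase II as part of their host transcript. A hairpin is cut out of the intron by the nuclear enzyme Drosha, trimmed in the cytoplasm by Dicer, and 1 strand of the duplex is loaded into an Argonaute protein, which it guides to mRNAs through its seed, bases 2 to 8. Pantothenate kinases catalyse the step that commits vitamin B5 to coenzyme A synthesis, and miR-103 and miR-107 are known as repressors of the mRNAs of Dicer and of caveolin-1 and as regulators of insulin sensitivity.

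The mature sequences are shown first because they decide which loci a short read can match. They were taken from RefSeq (GRCh38.p14), where all 5 members were found, and the seed is in capitals.
miR-103a-3p (MIR103A1 and MIR103A2): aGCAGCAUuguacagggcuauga
miR-107 (MIR107): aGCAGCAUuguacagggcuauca
miR-103b (MIR103B1 and MIR103B2): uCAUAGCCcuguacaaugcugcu

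MIR103A1 and MIR103A2 gave the same miR-103a-3p. Counted from the 5′ end, miR-107 differed from it by the single substitution G22C in 23 bases, so that the first 21 bases were identical. Of 2370 mature miRNAs in the RefSeq table, 2 (0.0844%) had the seed GCAGCAU, namely miR-103a-3p and miR-107. The antisense product miR-103b is the exact reverse complement of miR-103a-3p, and its seed is a different one. The hairpins are given next, with the longest run that all 3 sense loci hold in capitals.
MIR103A1: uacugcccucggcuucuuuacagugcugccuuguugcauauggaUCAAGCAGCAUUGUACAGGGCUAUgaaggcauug
MIR103A2: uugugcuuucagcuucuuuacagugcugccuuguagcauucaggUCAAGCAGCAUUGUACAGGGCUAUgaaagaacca
MIR107: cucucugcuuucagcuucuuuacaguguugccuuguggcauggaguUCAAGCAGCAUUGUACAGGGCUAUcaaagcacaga

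The shared run was 24 bases long and held the first 21 bases of the mature miRNA and the 3 bases before it. Outside of it the hairpins differed. Over the whole hairpins, with the shared run included, MIR103A1 and MIR103A2 were identical at 63 of 78 bases (80.8%). MIR103A1 and MIR107 were identical at 64 (82.1%) and MIR103A2 and MIR107 at 69 (88.5%). Of the 57 stretches of 22 bases in the MIR103A1 hairpin, 8 were present without a change in MIR103A2 and 3 in MIR107. With at most 1 mismatch these were 20 and 10. The loci are therefore most alike in the mature miRNA itself, the sequence that small RNA reads mostly come from.

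MIR103A1 (ENSG00000199035.2) lies within PANK3, at chr5:168560896-168560973 (minus strand, GRCh38 as in the count tables). MIR103A2 (ENSG00000199024.1) lies within PANK2, at chr20:3917494-3917571 (plus strand), and MIR107 (ENSG00000198997.2) within PANK1, at chr10:89592747-89592827 (minus strand). In the GENCODE v44lift37 annotation each lay in intron 5 of the 6 introns of the canonical host transcript, on the host's own strand. These introns had lengths of 2235 bases in PANK3, 1620 bases in PANK2 and 4419 bases in PANK1. MIR103B1 (ENSG00000283612.1, chr5:168560904-168560965, plus strand) and MIR103B2 (ENSG00000283320.1, chr20:3917502-3917563, minus strand) sit wholly inside their sense partners.

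The 3 sense loci were among the most abundant small RNAs of these cells. For MIR103A1, replicates 1 and 2 of 52X T4A held 186632 and 343052 counts, and those of 52X WT held 207154 and 212272. For MIR103A2, the same libraries of 52X T4A held 186715 and 343320 counts, and those of 52X WT held 207313 and 212504. For MIR107, they were 172016 and 315059 with 52X T4A, against 186414 and 193503 with 52X WT. The raw counts followed the depth of the libraries, which held from 16180790 to 27370127 counts, and 52X T4A replicate 2 was the deepest. Per base of feature length, MIR103A1 ranked between 13 and 17 among all features and between 9 and 12 among miRNA features, over the 4 libraries. MIR107 ranked between 16 and 18 among all features on the same scale. Of all counts at miRNA features, MIR103A1 took from 1.51% to 2.01% and MIR107 from 1.38% to 1.81%.

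Counts were then scaled to CPM, the count per 1000000 counts of the library, with TMM factors, which adjust the library size to the bulk of features. Replicates 1 and 2 of 52X T4A were at 11789 and 10862 CPM for MIR103A1, while those of 52X WT were at 14192 and 11273 CPM. For MIR103A2, 52X T4A stood at 11794 and 10871 CPM and 52X WT at 14203 and 11285 CPM. For MIR107, 52X T4A stood at 10865 and 9976 CPM and 52X WT at 12772 and 10276 CPM. In each of the 3 loci 52X WT replicate 1 stood highest and 52X T4A replicate 2 lowest, and the groups overlapped because 52X T4A replicate 1 exceeded 52X WT replicate 2.

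**Figure D1:**
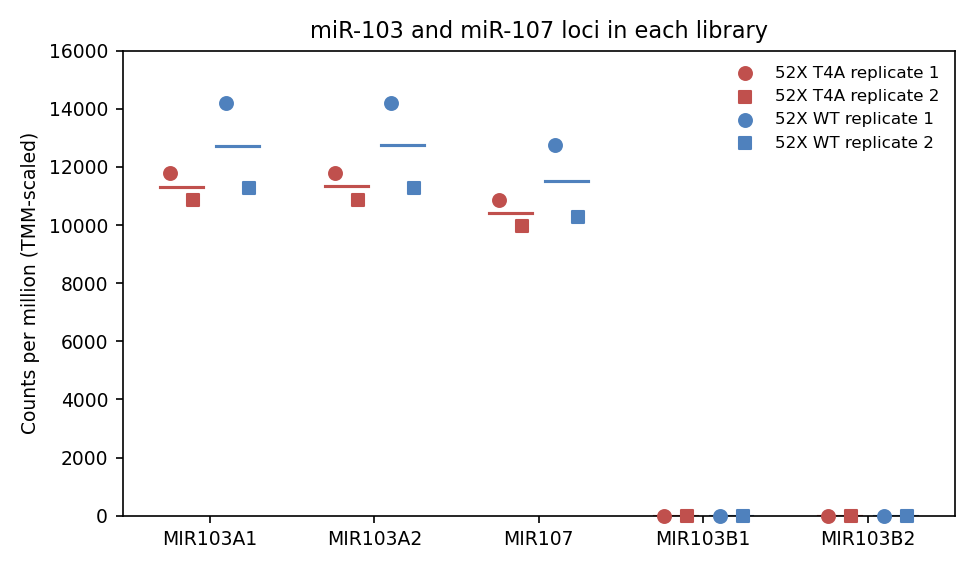
CPM (TMM-scaled, linear axis from 0) of the 5 loci in each library, with circles for replicate 1, squares for replicate 2 and a bar at each group mean (n = 2). MIR103A1, MIR103A2 and MIR107 lie between 9976 and 14203 CPM with overlapping groups, and MIR103B1 and MIR103B2 are at 0.

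No difference between 52X T4A and 52X WT was detected at any of the 3 loci. The mean of MIR103A1 was 11326 ± 655 CPM with 52X T4A, against 12733 ± 2060 CPM with 52X WT (SD, 2 libraries each). The log2 fold change, 52X T4A over 52X WT, was −0.17 with a standard error of 0.20 (edgeR quasi-likelihood test, Benjamini-Hochberg adjusted p 0.768). The 95% interval ran from −0.61 to 0.28, that is from 0.653 to 1.21 times the 52X WT level. For MIR107 the means were 10421 ± 629 CPM and 11524 ± 1760 CPM (SD, 2 libraries each). The fitted change of MIR107 was −0.15 ± 0.20 on the log2 scale (SE; edgeR, Benjamini-Hochberg adjusted p 0.814) and an interval from −0.59 to 0.30. MIR103A2 had −0.17 ± 0.20 (SE; edgeR, Benjamini-Hochberg adjusted p 0.768). In this fit a fall of MIR103A1 to 0.653 times or a rise to 1.21 times the 52X WT level would be within the error. These limits belong to this fit alone. With DESeq2 the log2 fold change of MIR103A1 was −0.13 with a larger standard error of 0.30, so larger changes are not excluded. None of the 3 members tested was called at an adjusted p below 0.05 and a fold change above 1.5, against 0.135% of the 1480 features tested, and 0 of 3 had groups that did not overlap, against 40.1% of those features.

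The sign of the change depended on how libraries were scaled. The median log2 fold change of all features tested was −0.05 with TMM factors, and with library size alone it was 0.14. Under library size alone MIR103A1 was at 0.012 and MIR107 at 0.035, and with upper quartile factors they were at 0.0024 and 0.026, so that with these scalings both loci were close to the 52X WT level and below the median of all features. The remaining alternatives placed them between −0.32 and −0.069, and none brought an adjusted p under the threshold.

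**Figure D2:**
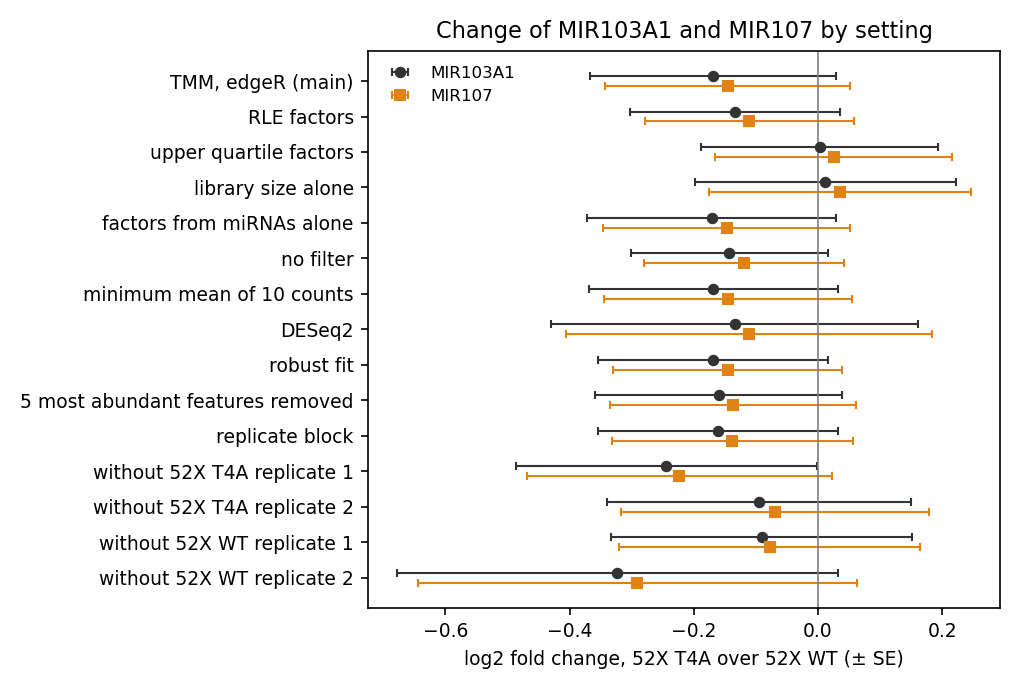
Log2 fold change of MIR103A1 (circles) and MIR107 (squares), 52X T4A over 52X WT, with bars of 1 standard error, for the main setting and each alternative. The values run from −0.32 without 52X WT replicate 2 to 0.035 with library size alone, and they lie above 0 with upper quartile factors and with library size alone.

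Whether the counts can tell the loci apart was examined next. MIR103A2 exceeded MIR103A1 by 83 and 268 counts with 52X T4A and by 159 and 232 counts with 52X WT, which is from 0.0445% to 0.109% of the MIR103A1 count. A read of miR-103a-3p matches both loci equally well, and how such reads were counted was not given in the sources used here. Library totals, CPM and percentages may hold such a read more than once. The levels of PANK3-derived and PANK2-derived miR-103a therefore cannot be told apart, and MIR103A1 and MIR103A2 are not independent measurements.

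MIR107 was nearly as high. Its count was 92.17% and 91.84% of the MIR103A1 count with 52X T4A, and 89.99% and 91.16% of it with 52X WT. Per base of the hairpins, which are 81 and 78 bases long, these shares were 88.8%, 88.4%, 86.7% and 87.8%. The difference left from 14616 to 27993 counts in a library at MIR103A1 beyond those at MIR107. A read within the mature miRNA that stops before base 22 matches all 3 loci, whereas reads from other stretches of the hairpins can separate them. The tables give no read positions and so do not show how much of the MIR107 count came from miR-107 itself.

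These near-equal counts were set beside other miRNA loci of like sequence. Pairs were taken among loci named by RefSeq miRNA position and strand, where the higher locus had a mean of at least 1000 counts. The set does not cover every miRNA locus: MIR7-1 and MIR101-2, for example, are in none of its pairs. Among 25 other pairs with a mature sequence in common, the lower locus had a median of 99.2% of the count of the higher, and in 14 it had at least 98%. MIR941-1 with MIR941-5 was lowest at 53.9%, and MIR103A1 with MIR103A2 stood at 99.9%. Among 25 other pairs whose mature sequences differ at 1 base, the median was 81.6%, with 7 pairs below 50% and 5 at or above 90%. MIR103A1 with MIR107 stood at 91.4% and MIR103A2 with MIR107 at 91.3%. The let-7 loci showed that loci 1 base apart can hold very different or similar counts in these tables. MIRLET7E had 14.6% of the count of MIRLET7A1, and MIRLET7F1 had 83.7% of it. Where in the miRNA the base differs was not compared, so these pairs do not show whether the counts separate MIR107 from MIR103A1. Pairs of one family share loci and are not independent, and no test was made.

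**Figure D3:**
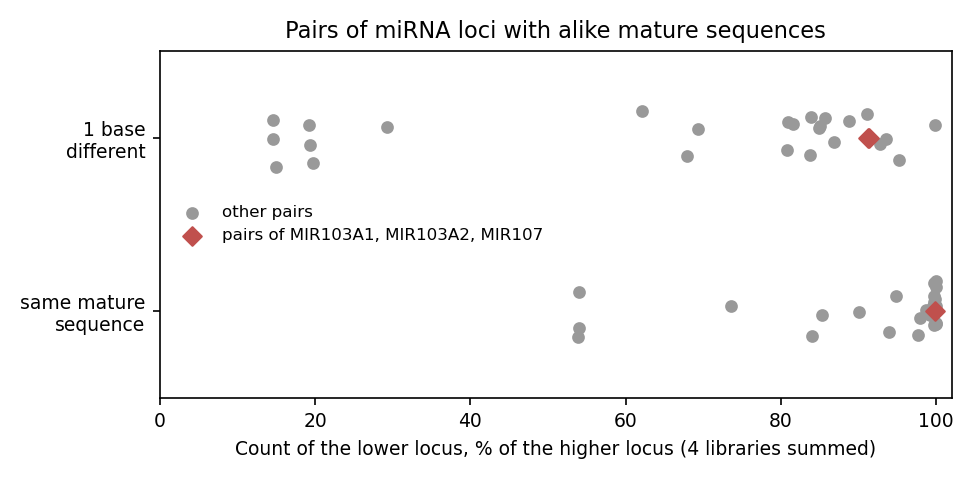
Count of the lower locus as a percentage of the higher locus, over the 4 libraries summed, for pairs of miRNA loci with a mature sequence in common or with mature sequences that differ at 1 base; vertical scatter only separates the points. Diamonds mark MIR103A1 with MIR103A2 at 99.9% and MIR107 with either of them at 91.3% and 91.4%.

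The relation of MIR107 to MIR103A1 within a library does not depend on scaling, and it was compared between groups. MIR107 made up 47.96% of the counts of MIR107 plus MIR103A1 in 52X T4A replicate 1 (95% Wilson interval 47.80% to 48.13%) and 47.87% in 52X T4A replicate 2 (47.75% to 47.99%). In the 52X WT libraries the share was 47.37% (47.21% to 47.52%) and 47.69% (47.53% to 47.84%). The intervals cover counting error only and treat the counts as separate reads. Both 52X T4A libraries were above both 52X WT libraries, by a mean of 0.392 percentage points (47.92% ± 0.063 against 47.53% ± 0.228, SD, n = 2). An exact two-sided permutation test gave p = 0.333, the smallest value that 2 libraries against 2 allow. Without 52X WT replicate 1 the difference was 0.231 points, and without that library the interval of the remaining 52X WT library overlapped those of both 52X T4A libraries.

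**Figure D4:**
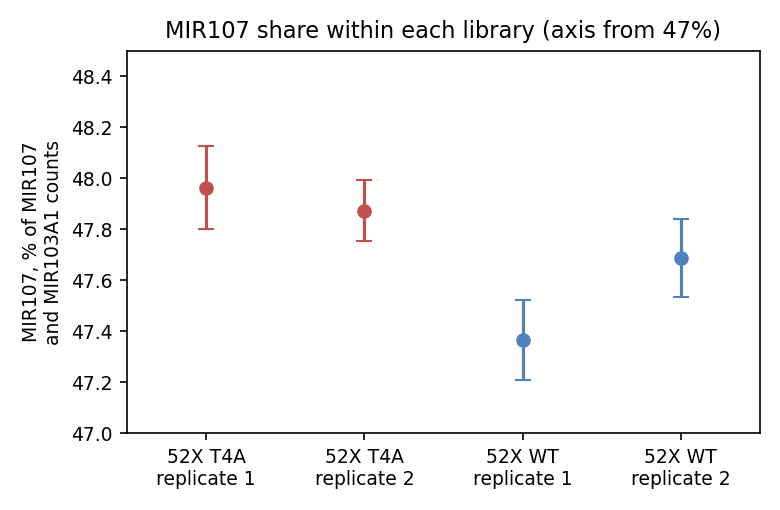
MIR107 as a percentage of MIR107 and MIR103A1 counts in each library, with 95% Wilson intervals that cover counting error only; the axis starts at 47%, not at 0. The 52X T4A libraries lie at 47.96% and 47.87% and the 52X WT libraries at 47.37% and 47.69%.

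Put as levels, MIR103A1 exceeded MIR107 by 923 and 886 CPM with 52X T4A and by 1421 and 997 CPM with 52X WT. The means were 905 and 1209 CPM, the 52X T4A libraries were both lower, and 52X WT replicate 1 stood far above the other 3.

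The antisense loci had no signal. MIR103B1 and MIR103B2 had 0 counts in each of the 4 libraries, which allows at most 0.189 and 0.095 CPM with 52X T4A and 0.206 and 0.159 CPM with 52X WT (3 counts per library, counting error only). Their sense partners held 949110 and 949852 counts, over features of 78 bases that contain the 62 bases of the antisense loci. Of the 4 other pairs of features that cover each other on opposite strands with at least 4000 counts in the higher, 3 had from 53 to 64 counts in the lower, namely MIR3529 opposite MIR7-2, MIR3184 opposite MIR423 and MIR374C opposite MIR374B. The exception was MIR3158-1 and MIR3158-2, whose hairpins give the same mature sequence and which held 8490 and 8489 counts. The sense counts of MIR103A1 and MIR103A2 thus did not appear on the opposite strand, and no count was available with which to compare the groups for miR-103b.

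The miRNAs nearest to miR-103 and miR-107 in seed belong mainly to the miR-15/16 family, known for repressing cyclins and BCL2. They share the letters GCAGC with the seed of miR-103 and miR-107 but begin them 1 base later in the miRNA, as the following sequences show with the seed in capitals.
miR-15a-5p: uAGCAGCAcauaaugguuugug
miR-15b-5p: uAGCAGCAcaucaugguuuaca
miR-16-5p: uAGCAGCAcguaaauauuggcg
miR-195-5p: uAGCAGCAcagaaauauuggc
miR-424-5p: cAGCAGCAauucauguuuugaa
miR-497-5p: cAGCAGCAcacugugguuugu
miR-503-5p: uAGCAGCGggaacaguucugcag

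The letters GCAGC stood anywhere in bases 1 to 8 of 23 of the 2370 mature miRNAs (0.97%). The 10 loci listed as seed relatives give only a chosen part of these miRNAs. For example, miR-4310, miR-761 and miR-922 hold the letters GCAGCA there and were not listed. Of the 10 listed loci, 8 passed the filter on low counts, while MIR646 and MIR6838 had 0 counts in all libraries. Of these, 0 were called and 0 had an unadjusted p below 0.05 (edgeR, with Benjamini-Hochberg adjusted p of 0.491 or more). Their log2 fold changes ran from −0.54 to 0.14 with a median of −0.18 and 7 of 8 below 0, against a median of −0.05 and 798 of 1480 below 0 over all features tested. The tally turned with the scaling: 4 of 8 were below 0 with upper quartile factors and 3 of 8 with library size alone, where the medians were 0.0094 and 0.029 for the list and 0.13 and 0.14 for all features. The groups did not overlap for 5 of the 8, against 40.1% of all features.

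MIR424, an X-linked locus of this family, was at 35.3 and 49.2 CPM with 52X T4A and at 64.8 and 58.3 CPM with 52X WT, and its log2 fold change was −0.54 ± 0.30 (SE). MIR15A was at 6.95 and 8.71 CPM with 52X T4A and at 12.5 and 10.4 CPM with 52X WT, with −0.54 ± 0.34 (SE). Both are among the 5 whose groups did not overlap, and the differences were not past the threshold (edgeR, Benjamini-Hochberg adjusted p 0.491 and 0.542). MIR503, which lies beside MIR424, had 365 and 398 CPM with 52X T4A and 344 and 347 CPM with 52X WT, and its log2 fold change of 0.14 ± 0.22 (SE) had the opposite sign. MIR16-1 and MIR16-2 give the same miR-16-5p, and their log2 fold changes were −0.17 ± 0.31 and −0.19 ± 0.29 (SE). MIR15B, MIR195 and MIR497 were at −0.06, −0.14 and −0.50, the last with only 23 to 36 counts in a library.

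**Figure D5:**
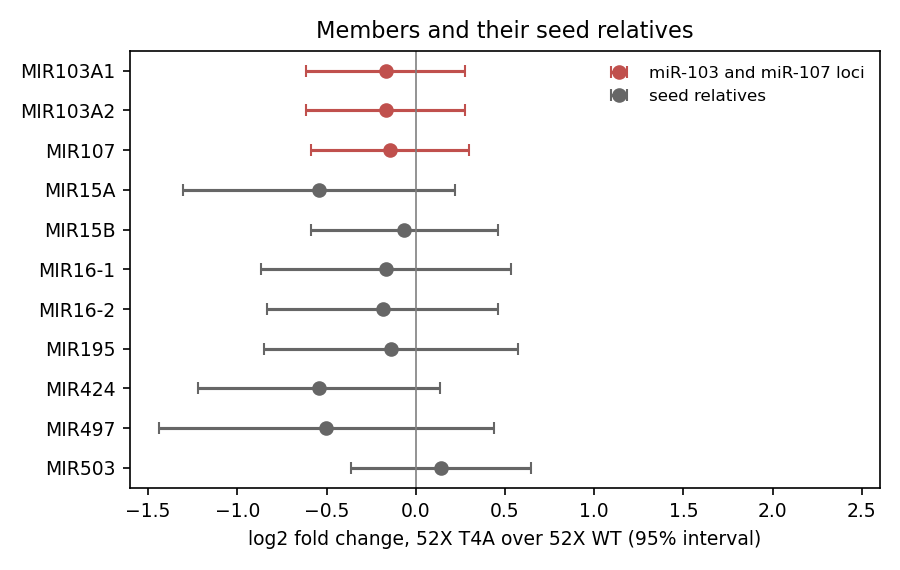
Log2 fold change, 52X T4A over 52X WT, with 95% intervals of edgeR's quasi-likelihood fit, for the 3 members with counts and the 8 seed relatives tested. All intervals drawn include 0, and those of the members, from −0.61 to 0.30, are the narrowest.

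The members were also read beside miRNAs known to lie in introns of other protein-coding genes. Of 40 such loci 38 were tested and 0 were called, with 18 above 0 and 20 below and a median of −0.0074. Some of the 38 share a mature sequence, such as MIR26A1 and MIR26A2, both at 0.27, and are not independent in these tallies. At an unadjusted p below 0.05 there were 5 of the 38 (edgeR), against 152 of the 1480 features tested. Among the 5, MIR101-2, in an intron of RCL1, had the smallest p and a log2 fold change of −0.86 ± 0.23 (SE; edgeR, Benjamini-Hochberg adjusted p 0.201). MIR101-1, a locus elsewhere that is not on the list, was at −0.87 ± 0.23 (SE; edgeR, Benjamini-Hochberg adjusted p 0.201). The values of MIR101-1 and MIR101-2 were nearly the same, and the counts do not show which locus the reads came from. Whether the change is particular to the RCL1 locus therefore cannot be told. MIR101-2 was named after its value was seen, and it was called when 52X WT replicate 1 or 52X WT replicate 2 was left out (edgeR, Benjamini-Hochberg adjusted p 0.0244 and 0.0287), fits in which 35 and 218 of all features were called. Without either 52X T4A library it was not called.

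Among these intronic miRNAs, those in genes of lipid and energy metabolism were looked at by name, as the PANK hosts belong to the same field. MIR378A, in an intron of the coactivator gene PPARGC1B, was at 19820 and 16080 CPM with 52X T4A and at 13590 and 15000 CPM with 52X WT. The groups did not overlap, as for 21 of the 38 intronic loci tested and 40.1% of all features, and the log2 fold change was 0.33 ± 0.19 (SE; edgeR, Benjamini-Hochberg adjusted p 0.521), against −0.15 and −0.17 for the members. It was 0.15 without 52X T4A replicate 1 and 0.16 without 52X WT replicate 1. MIR33A, in an intron of SREBF2, a gene that controls cholesterol synthesis, had from 61 to 140 counts in a library and a log2 fold change of −0.32 ± 0.36 (SE; edgeR, Benjamini-Hochberg adjusted p 0.747). MIR33B, in an intron of the related gene SREBF1, had from 0 to 4 counts and was not tested.

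The profile of the members over the 4 libraries was last compared with other miRNA features, among the 311 whose mean was 100 counts or more. Likeness was the root mean square difference of log2 CPM, after each feature was centred on its own mean. MIR500B came closest to MIR103A1, at 0.0466, followed by MIR452 at 0.0596 and MIR577 at 0.0757, where the median feature stood at 0.255. For MIR107 the same miRNAs came first, at 0.0499, 0.0549 and 0.0667. MIR500B was at 33.2 and 33.3 CPM with 52X T4A and at 41.5 and 34.0 CPM with 52X WT. Like the members it was highest in 52X WT replicate 1. Unlike theirs, its groups did not overlap, though 52X WT replicate 2 was close to both 52X T4A libraries. Its level was far lower, so that these are profiles over 4 libraries only and are given as a description.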

How the data were processed

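Small RNA libraries (single-end reads of 50 bp) of 52X T4A and 52X WT cells were compared, with 2 libraries per group. The authors deposited raw read counts for 7062 features in each library, with no normalization. Per the labels, the submitters' processing notes name cutadapt 4.6, Bowtie2 2.3.5.1, featureCounts 1.5.0 and the build hg38, while the annotation, the use of strand and the treatment of reads that match several loci were not given in the sources used here. Features were named by identical RefSeq miRNA position and strand (1501), by Ensembl identifier in GENCODE v44lift37 (4658) or by RefSeq position (329), and 574 kept their identifiers. MIR103B1 and MIR103B2 were named by position. GENCODE v44lift37, which is on GRCh37, gave host introns only, and no coordinates were converted.

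Counts were tested with the quasi-likelihood test of edgeR 4.0.16 in R 4.3.3, after filterByExpr at a minimum count of 10 and TMM scaling, in a fit over all 1480 features that passed, with Benjamini-Hochberg adjustment. The biological coefficient of variation was 26%. The standard error was the size of the log2 fold change over the square root of F. Log2 CPM used a prior count of 1. The exact permutation test and Wilson intervals came from scipy 1.17.1. The fit was tested on simulated data.

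Named features were the 5 members, the listed seed relatives, 3 intronic miRNAs and the 3 miRNAs of most similar profile to MIR103A1 and to MIR107, and any other was named for the value given beside it. The members and lists were chosen with earlier results of these data known. Alternatives were other scaling factors, filters, DESeq2 1.42.0, a robust fit, removal of the 5 most abundant features, the replicate number as a block and removal of each library.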

Additional observations from a re-analysis of the deposited data

How the results depend on the processing

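Of 42 comparisons of the 3 members with an alternative, 36 left sign and call as they were. The 6 others turned sign: MIR103A1 to 0.0024, MIR103A2 to 0.0020 and MIR107 to 0.026 with upper quartile factors, and 0.012, 0.011 and 0.035 with library size alone. Under the replicate block, MIR103A1, MIR103A2 and MIR107 were at −0.16, −0.16 and −0.14. The labels do not say that numbers mark pairs, and the correlation of same-numbered deviations was 0.0946 across features. Over the fits that left out a library, which assume that the lone library varies like the other group, MIR103A1 and MIR103A2 ranged from −0.32 to −0.09 and MIR107 from −0.29 to −0.069. The share difference ranged from 0.231 to 0.553 points.
Of all features, 2 were called in the main setting, 9 with library size alone, 0 with factors from miRNAs alone (edgeR, 143 at an unadjusted p below 0.05), 29 without a filter, 30 with DESeq2 and 18 with the replicate block. Without 52X WT replicate 2 there were 218, without 52X WT replicate 1 there were 35, and without 52X T4A replicates 1 and 2 there were 6 and 4. Members and seed relatives had 0 calls in each setting. Among intronic miRNAs 1, MIR101-2, was called without a filter, with the block and without either 52X WT library, and 0 when a 52X T4A library was left out.
Among 13 other named miRNAs, 18 of 182 comparisons turned sign. With upper quartile factors these were MIR15B at 0.10, MIR16-1 at 0.021, MIR195 at 0.020, MIR452 at 0.099 and MIR577 at 0.069. With library size alone they were MIR15B at 0.12, MIR16-1 at 0.049, MIR16-2 at 0.026, MIR195 at 0.032, MIR452 at 0.11, MIR500B at 0.00048 and MIR577 at 0.082. Leaving out a library took MIR16-1 from −0.52 to 0.11, MIR16-2 from −0.50 to 0.065, MIR33A from −0.67 to 0.016 and MIR452 from −0.27 to 0.055. The cause was not tested.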
